A study of Danio rerio with 19 samples.

Results

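The genes described here are ccnd1 (ENSDARG00000101637), plk4 (ENSDARG00000004576), mdm2 (ENSDARG00000033443) and rps27l (ENSDARG00000100513), 4 of the 31901 zebrafish genes counted. They are grouped by known function, as genes of the cell cycle (ccnd1 for entry, plk4 for centriole duplication) and targets of p53 (mdm2, rps27l). They are followed through 4 groups of sorted islet cells and 19 libraries. They were selected on values measured in these same libraries, so their levels and differences are given as a description, with no test. All 4 passed the filter on low counts that left 14693 genes for testing.

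Cyclin D1, the product of ccnd1, partners the kinases CDK4 and CDK6 in G1 and helps to inactivate the retinoblastoma protein, which frees E2F factors to switch on genes for DNA replication. Polo-like kinase 4, from plk4, starts the duplication of the centrioles that normally accompanies S phase. The tumour suppressor p53 is stabilised by stress and DNA damage and induces genes for arrest, repair and cell death. One of these is mdm2, which encodes the ubiquitin ligase that sends p53 itself to degradation, and another is rps27l, which encodes a protein close to ribosomal protein S27 and is known as a p53 target from human cells. Pancreatic β-cells divide rarely in the adult.

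The libraries came from Tg(sst1.1:eGFP) and Tg(ins:NTR*-P2A-mCherry) double transgenic fish of 6 to 10 months, males and females, in which the sst1.1 promoter drives GFP and the ins promoter drives mCherry with nitroreductase, the enzyme that makes the prodrug nifurpirinol (NFP) toxic to β-cells. The bihormonal cells (GFP+ mCherry+, 6 libraries) were taken 20 days post treatment (dpt) from fish ablated with 2.5 µM NFP for 18 hr. The other 3 groups came from fish given 0.16% DMSO for 18 hr instead: GFPhigh cells with strong sst1.1:GFP fluorescence (3 libraries), GFPlow cells with weak fluorescence (3 libraries) and mCherry+ β-cells (7 libraries). Bihormonal identity and ablation thus go together, and their parts cannot be told apart in any comparison with bihormonal cells. Every library pools cells sorted from the main islets of 2 to 4 fish. The study's text calls these libraries independent biological replicates.

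Total counts ran between 5599246 and 18077658 per library, with a median of 10851802. All levels below are normalized counts, that is, counts scaled for library size and composition, and they are not divided by gene length. The scaling factor was lowest in bihormonal replicate 4 (0.476) and bihormonal replicate 5 (0.63). The markers fitted the labels in part: the median of ins was 379676 in bihormonal cells, 2049 in GFPhigh cells, 3958 in GFPlow cells and 2477020 in β-cells, whereas MNX1, a β-cell transcription factor, had a median of 7.35 in bihormonal cells and of 1843 in β-cells. The study too reports mnx1 as absent from bihormonal cells. Of 4 sst1.1 δ-cell markers sst1.1 itself was not matched by name. The others had medians of 207 (cdh10a), 2590 (BDNF) and 561 (hhex) in bihormonal cells, and of 1825, 2090 and 535 in GFPhigh cells. GFPlow cells carried sst2, a hormone of another δ-cell population, with a median of 1627460, against 35375 in GFPhigh cells. In bulk libraries such as these, fewer cells of a type and less RNA per cell cannot be told apart.

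The level of ccnd1 separated GFPhigh cells from every other group. In bihormonal cells its lowest, median and highest normalized counts were 58.7, 180.3 and 406. In GFPhigh cells it had 16.9, 0 and 7.37 (14, 0 and 7 reads), so it was next to undetected. GFPlow cells held 333, 322 and 251, and β-cells ranged between 30.3 and 223 with a median of 75.7.

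All 6 bihormonal libraries and all 3 GFPlow libraries therefore lay above the highest GFPhigh library. Group means were 200.1 ± 124 in bihormonal cells (SD, n = 6), 8.1 ± 8.5 in GFPhigh cells (n = 3), 302 ± 44.6 in GFPlow cells (n = 3) and 98.7 ± 65.8 in β-cells (n = 7), so the order from high to low was GFPlow, bihormonal, β-cells and GFPhigh. Neighbours in that order overlapped between GFPlow and bihormonal cells, where bihormonal replicate 5 exceeded all GFPlow libraries, and between bihormonal cells and β-cells, where 3 of 6 bihormonal libraries exceeded all β-cell libraries. The bihormonal mean was 24.7 times the GFPhigh mean, a fitted log2 fold change of 4.62 (SE 0.82). Against β-cells the fitted difference was smaller, at 1.03 (SE 0.46), and 0.39 when libraries were scaled by their totals alone. GFPhigh cells lay below GFPlow cells by a log2 fold change of -5.21 (SE 0.86) and below β-cells by -3.59 (SE 0.79).

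**Figure D1:**
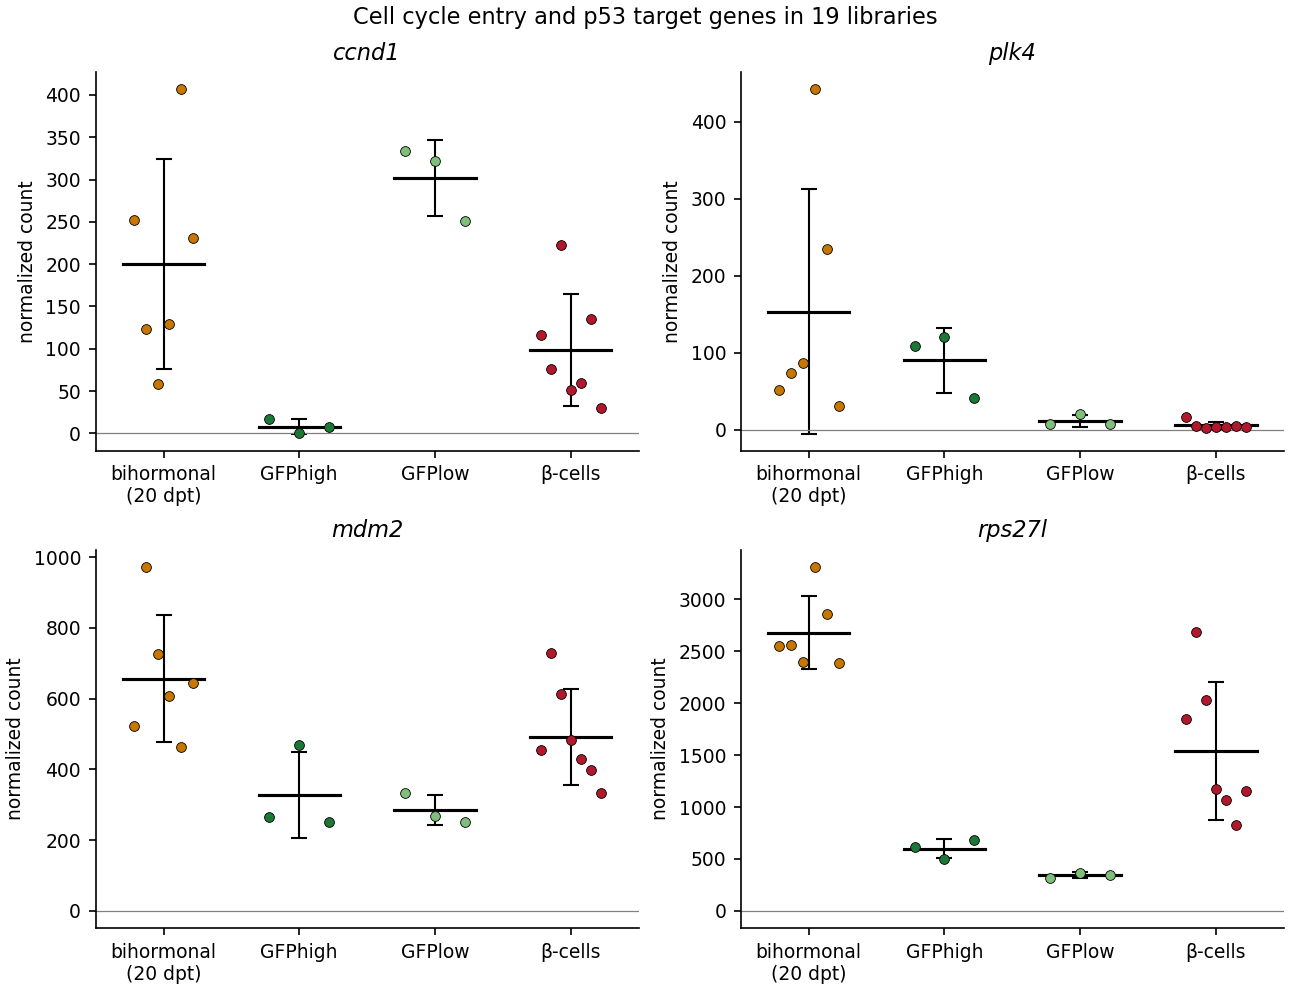
Normalized counts of ccnd1, plk4, mdm2 and rps27l in each of the 19 libraries (points), by group, with the group mean (bar) and SD (whiskers). ccnd1 lies at 0 to 16.9 in GFPhigh cells, plk4 reaches 442 and 235 in bihormonal replicates 4 and 5, and rps27l is at least 2391 in all 6 bihormonal libraries.

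In each of the 4 groups the library with the highest ccnd1 also had the highest summed level of 7 leukocyte genes. These were bihormonal replicate 5 (ccnd1 406, sum 1273), GFPhigh replicate 1 (16.9, 836), GFPlow replicate 1 (333, 851) and β-cell replicate 3 (223, 3261). That sum, over the 7 of 10 listed leukocyte genes found in the tables, ran from 208 to 1273 in bihormonal cells, 89.6 to 836 in GFPhigh cells, 35.9 to 851 in GFPlow cells and 187 to 3261 in β-cells. Nearly all of the sum came from cd74a and cd74b, genes of antigen presentation, which reached 331 and 942 in bihormonal cells, 229 and 683 in GFPhigh cells, 227 and 615 in GFPlow cells and 2046 and 1199 in β-cells. Of the rest, lyz, a gene of granulocytes and macrophages, was at 0 in all 19 libraries, and ptprc, the pan-leukocyte antigen CD45, was at most 12.8. In β-cells LCP1, CORO1A and marco reached 22.8, 23.6 and 15.5, and CORO1A reached 24.2 in GFPlow cells. GFPlow replicate 2 had the lowest leukocyte sum of all libraries (35.9) and a ccnd1 level of 322. The part of leukocytes in the ccnd1 levels was not tested. Leaving out bihormonal replicate 5 gave ccnd1 a log2 fold change of 0.7 between bihormonal cells and β-cells.

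The other D-type cyclins had other patterns. CCND2 (ENSDARG00000051748), the D-type cyclin most studied in mouse β-cells, stood at 304 ± 118 in bihormonal cells against 843 ± 199 in β-cells (means), and it was lower in all 6 bihormonal libraries (log2 fold change -1.47, SE 0.23, edgeR adjusted p = 6.28e-05). Here and below, adjusted p is the Benjamini-Hochberg value over the 14693 genes from the quasi-likelihood test of edgeR, and a gene counts as called when the adjusted p is under 0.05 and the fold above 2. Against GFPhigh cells (509 ± 142) the same gene was not called, with -0.74 (SE 0.28, edgeR adjusted p = 0.098). The second CCND2 row (ENSDARG00000070408) averaged 9.8 in bihormonal cells, 18.3 in GFPhigh cells, 5.4 in GFPlow cells and 5.41 in β-cells, and ccnd3 was at 0 to 3.47 everywhere, both too low for the test. CDK6, a partner kinase of cyclin D, had 1.97 ± 1.66 in bihormonal cells against 47.7 ± 14.9 in β-cells (edgeR adjusted p = 5.89e-05).

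The level of plk4 was higher in bihormonal and GFPhigh cells than in GFPlow cells and β-cells. Bihormonal replicates 1 to 6 had 52, 74.3, 87.2, 442, 235 and 31.7 normalized counts. GFPhigh libraries had 108.9, 120.3 and 42.1, GFPlow libraries 7.25, 20.4 and 7.13 (6, 21 and 5 reads), and β-cells 2.75 to 16.9 with a median of 4.33. Every bihormonal and every GFPhigh library was thus above all GFPlow and all β-cell libraries, while bihormonal and GFPhigh cells overlapped.

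From high to low the means were 153.8 ± 159 in bihormonal cells (SD, n = 6), 90.4 ± 42.2 in GFPhigh cells (n = 3), 11.6 ± 7.61 in GFPlow cells (n = 3) and 5.9 ± 4.91 in β-cells (n = 7), with overlap between the first and second group and between GFPlow cells and β-cells. The bihormonal mean was 26 times the β-cell mean (log2 fold change 4.74, SE 0.61), and the GFPhigh mean was 15.3 times it (3.97, SE 0.66). Between GFPhigh cells and β-cells ccnd1 went the other way, with -3.59 (SE 0.79). Between bihormonal and GFPhigh cells the log2 fold change of plk4 was 0.77 (SE 0.67). That value came from bihormonal replicates 4 and 5: it was 0.09 without replicate 4 and -0.59 without both, a choice made after the values were seen, whereas the difference from β-cells was still 3.4 without both. The libraries with neighbouring numbers in their deposited names form 6 sets, and bihormonal replicates 4 and 5 share a set with β-cell replicate 1, which had the highest plk4 level of the β-cells (16.9). Within another set, plk4 had 31.7 in bihormonal replicate 6, 42.1 in GFPhigh replicate 3 and a mean of 4.56 in β-cell replicates 6 and 7. What the sets stand for is not given in the sources used here, and their part in the plk4 levels was not tested.

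Polo-like kinase 1, from plk1, a paralog that drives entry into mitosis, showed the same contrast with β-cells, at 61.8 ± 29.9 in bihormonal cells against 2.71 ± 2.97 in β-cells (log2 fold change 4.49, SE 0.64, edgeR adjusted p = 1.91e-05). GFPhigh cells had 45.2 ± 42 plk1 counts and GFPlow cells 15.09 ± 9.9, a difference that was not called (edgeR adjusted p = 0.203). The stress-responsive kinase PLK3 was higher in GFPhigh than in GFPlow cells, at 859 ± 405 against 288 ± 98.9 (edgeR adjusted p = 0.00613). One PLK2 row (ENSDARG00000019130) was lower there, at 29.9 ± 5.31 against 103 ± 17.2 (edgeR adjusted p = 0.0176), and the other (ENSDARG00000090752) had 163 ± 68.7 against 129 ± 7.38 and was not called. With the library set blocked neither PLK3 nor PLK2 was called, and PLK3 was not called with scaling by library totals. No set holds both GFPhigh and GFPlow cells, so the blocked fit compares them only by way of β-cells.

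**Figure D2:**
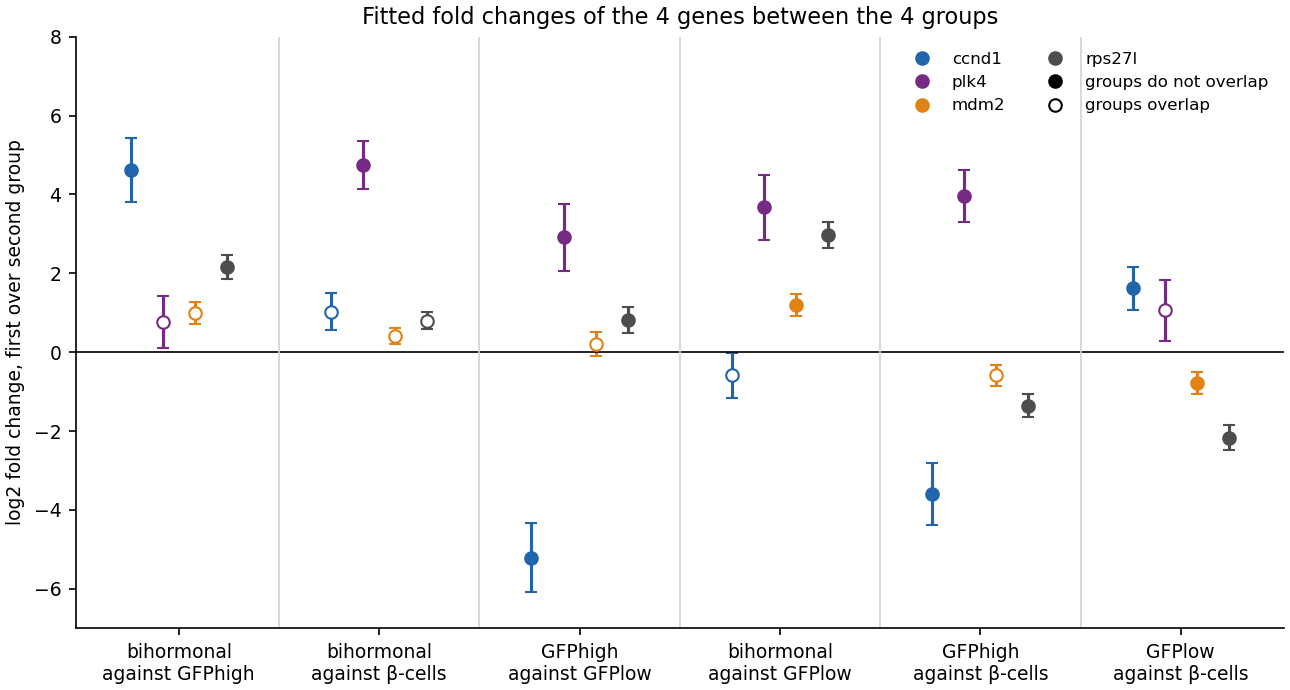
Fitted log2 fold change of ccnd1, plk4, mdm2 and rps27l for the 6 pairs of groups, first group over second, with its standard error (whiskers). Filled points mark pairs whose libraries do not overlap. The largest values are -5.21 for ccnd1 in GFPhigh against GFPlow cells and 4.74 for plk4 in bihormonal cells against β-cells.

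The mdm2 transcript varied far less between groups than ccnd1 or plk4. Its lowest, median and highest normalized counts were 463, 626 and 973 in bihormonal cells. GFPhigh libraries had 265, 469 and 252, GFPlow libraries 333, 270 and 252, and β-cells 334 to 729 with a median of 454. The 6 bihormonal libraries were all above the 3 GFPlow libraries, and 5 of 6 were above all GFPhigh libraries, the exception being bihormonal replicate 5 (463) beside GFPhigh replicate 2 (469).

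Group means were 656 ± 180 in bihormonal cells (SD, n = 6), 329 ± 122 in GFPhigh cells (n = 3), 285 ± 42.6 in GFPlow cells (n = 3) and 491 ± 135 in β-cells (n = 7). From high to low the order was bihormonal, β-cells, GFPhigh and GFPlow, and each neighbour overlapped the next. The bihormonal mean was 2 times the GFPhigh mean, with a log2 fold change of 1 (SE 0.28), and 2.3 times the GFPlow mean (1.2, SE 0.28). Against β-cells the log2 fold change was 0.42 (SE 0.21). It was -0.20 when libraries were scaled by their totals alone, a scaling that also moved the median of all genes in that comparison by -0.64. Between GFPhigh and GFPlow cells the log2 fold change of mdm2 was 0.2 (SE 0.31), and -0.14 without GFPhigh replicate 2.

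MDM4, the partner of MDM2 that also restrains p53, was nearly level across the 4 groups, at 483 ± 37.6 in bihormonal, 471 ± 90.5 in GFPhigh, 489 ± 48.8 in GFPlow and 476 ± 77.8 in β-cells.

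The rps27l transcript set bihormonal cells apart from both δ-cell groups, and its libraries lay close together within bihormonal cells. Bihormonal libraries had 2391 to 3313 normalized counts with a median of 2555. GFPhigh libraries had 616, 502 and 680.04, GFPlow libraries 313, 369 and 345, and β-cells 829 to 2682 with a median of 1173. All bihormonal libraries were above all GFPhigh and GFPlow libraries, and all GFPhigh libraries above all GFPlow libraries.

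Group means were 2679 ± 355 in bihormonal cells (SD, n = 6), 599 ± 90 in GFPhigh cells (n = 3), 342 ± 28.4 in GFPlow cells (n = 3) and 1540 ± 665 in β-cells (n = 7). From high to low the order was bihormonal, β-cells, GFPhigh and GFPlow, and of the 6 pairs bihormonal cells and β-cells were the one that overlapped. Bihormonal cells had 4.47 times the GFPhigh mean (log2 fold change 2.16, SE 0.31) and 7.82 times the GFPlow mean (2.97, SE 0.33). Against β-cells the log2 fold change was 0.8 (SE 0.22), and 0.13 with scaling by totals alone. β-cell replicates 1, 2 and 3 (1848, 2682 and 2030) stood above replicates 4 to 7 (1173, 1066, 829 and 1155). These 3 libraries belong to other sets than replicates 4 to 7, and within sets the bihormonal mean was 1.67 times the β-cell level where bihormonal replicates 4 and 5 met β-cell replicate 1, and 2.41 times it where bihormonal replicate 6 met β-cell replicates 6 and 7. GFPhigh cells were below β-cells by a log2 fold change of -1.36 (SE 0.29).

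The 2 genes for ribosomal protein S27 in the tables, rps27.1 and rps27.2, had smaller ratios between groups than rps27l. In bihormonal cells rps27.1 averaged 3796 ± 758 and rps27.2 1199 ± 285, against 2136 ± 943 and 708 ± 369 in GFPhigh cells, and neither was called (edgeR adjusted p = 0.0661 and 0.13). In β-cells they averaged 2888 ± 275 and 903 ± 155. The share of rps27l in the counts of the 3 genes was 35.3 ± 4.22% in bihormonal cells, 19 ± 5.78% in GFPhigh cells, 9.69 ± 4.2% in GFPlow cells and 28.2 ± 9.21% in β-cells. How far the 3 genes share sequence, and how the authors' counting treated reads that match more than 1 of them, was not tested here.

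**Figure D3:**
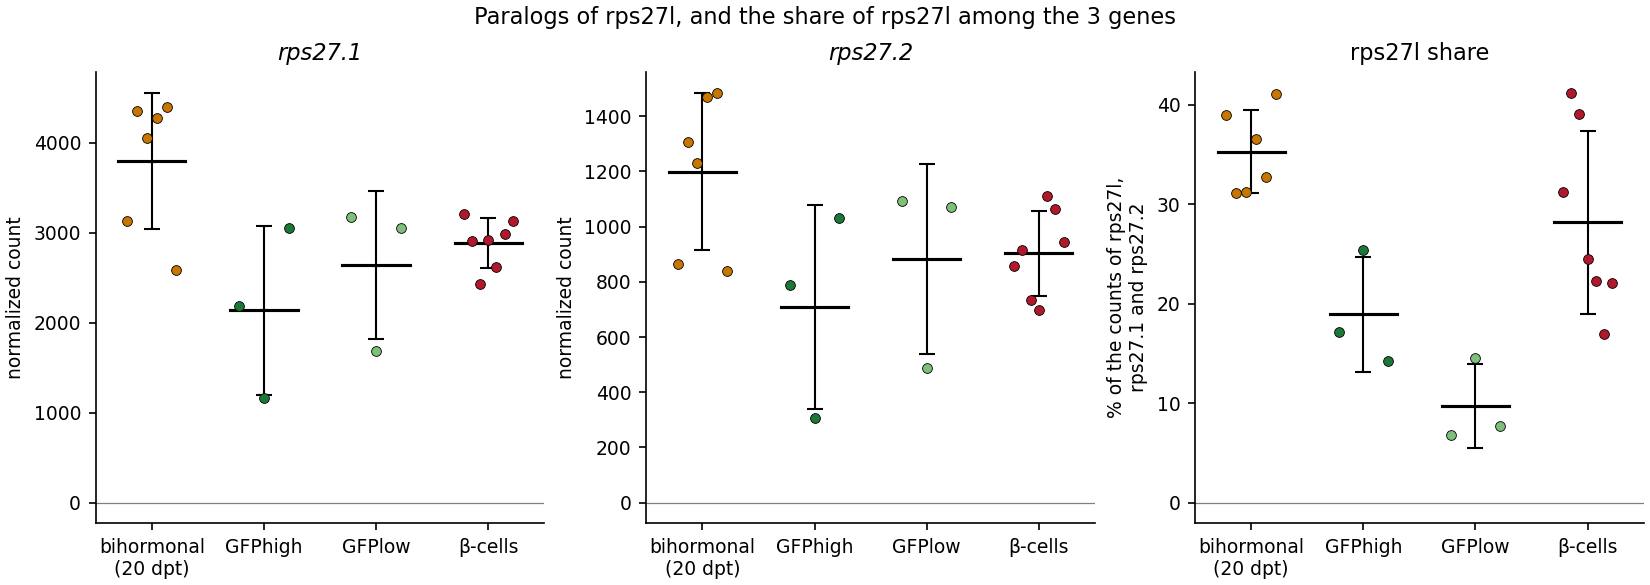
Normalized counts of rps27.1 and rps27.2, and the percentage of rps27l among the counts of the 3 genes, in each library (points) with group mean (bar) and SD (whiskers). The share of rps27l runs from 31.2 to 41.1% in bihormonal cells and from 6.83 to 14.5% in GFPlow cells.

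Set against all genes, groups that do not overlap were common in some pairs. Between bihormonal and GFPhigh cells 2 of the 4 genes (ccnd1, rps27l) had no overlap, against 11.3% of all genes tested, and between bihormonal cells and β-cells 1 of 4 (plk4), against 9.07%. For GFPhigh against GFPlow cells it was 3 of 4 (ccnd1, plk4, rps27l), against 38.6%, for bihormonal against GFPlow cells 3 of 4 (plk4, mdm2, rps27l), against 23.8%, for GFPhigh cells against β-cells 3 of 4 (ccnd1, plk4, rps27l), against 22.4%, and for GFPlow cells against β-cells 3 of 4 (ccnd1, mdm2, rps27l), against 26.2%. Since values of these libraries chose the 4 genes, nothing is read from these counts. The pairs share libraries, so they do not stand independently of each other. In the last pair mdm2 was separated by the margin between 333.3 in the highest GFPlow library and 333.7 in the lowest β-cell library.

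The rest of the cell cycle was followed through 5 lists, of G1 regulators, CDK inhibitors, S phase, centriole duplication and mitosis, with 121 tested genes besides the 4. Bihormonal cells were compared with GFPhigh cells to see how cells that make both hormones differ from δ-cells of unablated fish. There 10 of the 121 genes were called higher and 0 lower, beside 1.42% of all genes called higher and 1.34% called lower (208 and 197 of 14693). The median log2 fold change of the 121 was 0.82, against 0.05 for all genes. At an unadjusted p under 0.05 edgeR gave 48 higher and 5 lower, and DESeq2's Wald test called 32 higher and 1 lower. Over all genes DESeq2 called 1153 in the 2 directions together. The share of all genes at an unadjusted p under 0.05 is not given here, so nothing is read from such counts in any list. The 10 edgeR calls were unstable to the choice of libraries: 0 were left without GFPhigh replicate 2 or without bihormonal replicate 4, 1 without bihormonal replicate 5, 2 without GFPlow replicate 3, 3 without GFPlow replicate 1 or β-cell replicate 4, 5 without GFPlow replicate 2 or β-cell replicate 2, and 18 and 21 without bihormonal replicates 1 and 2.

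Among G1 regulators 3 of 22 rose in bihormonal against GFPhigh cells. E2F5, an E2F factor, had 117 ± 77.7 against 19.3 ± 10.9 (log2 fold change 2.59, SE 0.65, edgeR adjusted p = 0.0408), and CKS1B and cks2, small subunits of CDK complexes, had 40.6 ± 33.1 against 3.12 ± 3.74 and 31.3 ± 25.1 against 2.46 ± 4.25. Of 6 CDK inhibitors 1 rose, CDKN2C, which inhibits CDK4 and CDK6, at 25.4 ± 16.5 against 2.02 ± 3.49 (edgeR adjusted p = 0.0404). Of 41 S phase genes 3 rose: chaf1a, a histone chaperone subunit of replicating chromatin (79.4 ± 43 against 18.5 ± 5.96, log2 fold change 2.09, SE 0.47, edgeR adjusted p = 0.032), RPA2, which binds single-stranded DNA (128 ± 56.8 against 42.1 ± 21.5), and PCNA, the sliding clamp of DNA polymerase (405 ± 124 against 194 ± 42.6, log2 fold change 1.06, SE 0.28, edgeR adjusted p = 0.046). PCNA also averaged 281 ± 43.8 in GFPlow cells and 263 ± 73.1 in β-cells, and was not called between bihormonal cells and β-cells because its fold there was 1.54.

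Of 35 mitosis genes 3 rose in bihormonal against GFPhigh cells. The log2 fold change was positive in 32 of 35 (91.4%, median 1.88), beside 52.6% of all genes. MAD2L1, of the spindle checkpoint, had 35 ± 29.6 against 1.21 ± 2.1, CCNB1, the mitotic cyclin B1, 25.9 ± 20.2 against 0.4 ± 0.7 (148 reads against 1 in all), and cdca8, of the chromosomal passenger complex, 28.7 ± 27.9 against 0 in all 3 GFPhigh libraries. Set against a floor of 3 reads over the GFPhigh group, the bihormonal mean of cdca8 was 25.1 times that floor. The groups still overlapped, since the lowest bihormonal level of cdca8 was 0 as well. None of the 17 genes of centriole duplication, the process that plk4 starts, was called by edgeR or by DESeq2, and at an unadjusted p under 0.05 edgeR gave 3 higher and 2 lower (median -0.02).

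**Figure D4:**
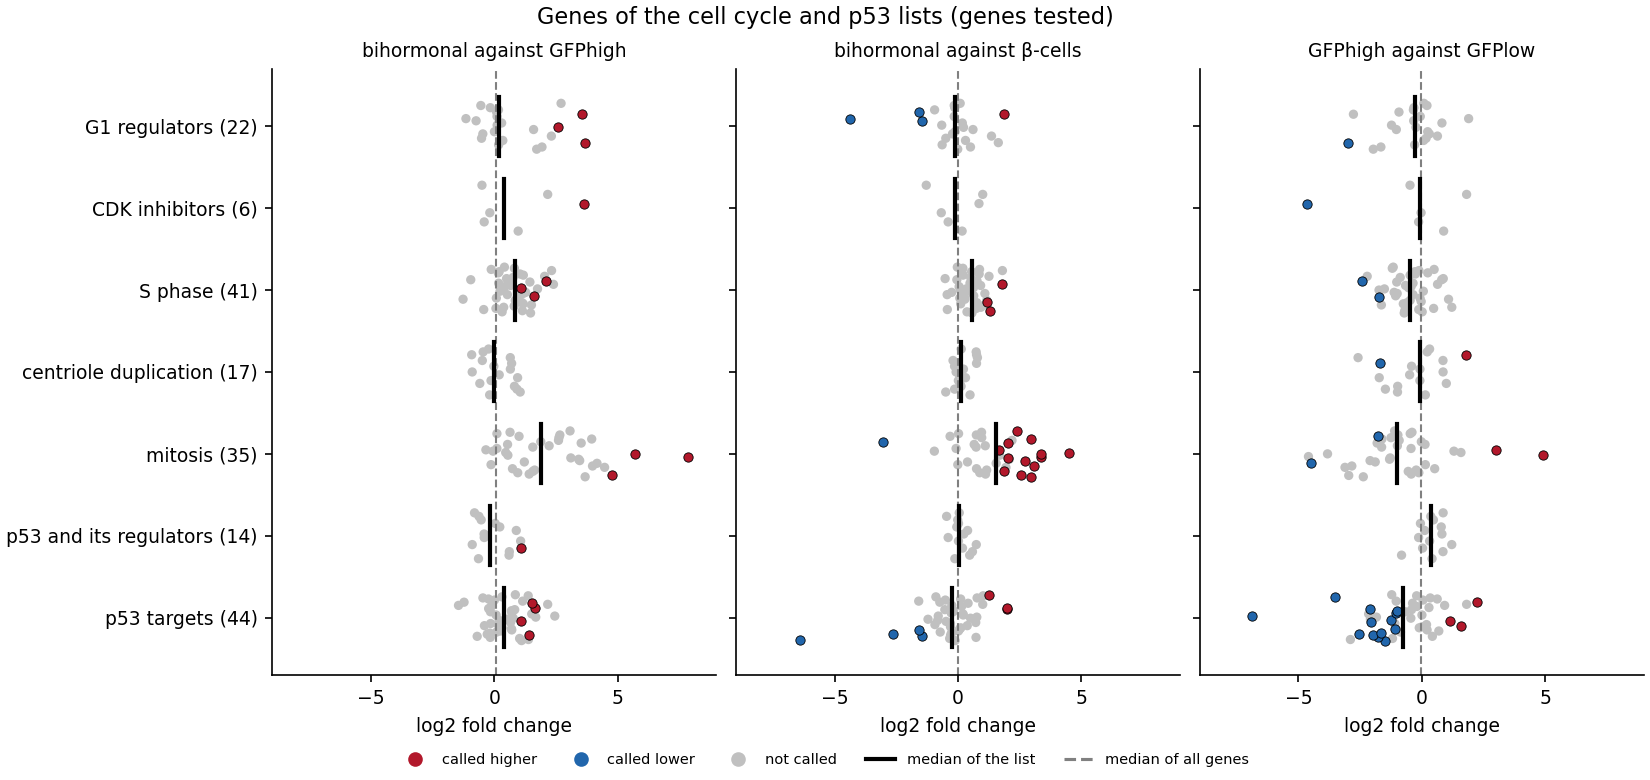
Fitted log2 fold change of every tested gene (points) of 7 lists in 3 comparisons, first group over second, with genes called higher in red, called lower in blue and not called in grey. The black bar is the median of the list and the dashed line that of all genes. Mitosis genes have medians of 1.88 in bihormonal against GFPhigh cells, 1.55 in bihormonal cells against β-cells and -0.99 in GFPhigh against GFPlow cells.

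The comparison of bihormonal cells with β-cells sets cells with both hormones, from ablated fish, against cells with insulin alone, from unablated fish. Here 17 of the 121 cell cycle genes were called higher and 4 lower, beside 7.39% of all genes called higher and 5.76% called lower (1086 and 847 of 14693). With scaling by library totals the split was 8 higher and 13 lower, beside 707 and 2896 over all genes. Mitosis genes made up 13 of the 17, and their median log2 fold change was 1.55, against 0 for all genes.

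The mitosis genes with the smallest p were plk1, given above, and kif20ba, a kinesin of cytokinesis (306 ± 106 in bihormonal cells against 95.2 ± 37.4 in β-cells, log2 fold change 1.68, SE 0.27, edgeR adjusted p = 9.34e-05). SPC25, a kinetochore subunit, went the other way, at 18.1 ± 16.2 against 155 ± 25.5 (log2 fold change -3.04, SE 0.56, edgeR adjusted p = 0.000372). CCNB1 (25.9 ± 20.2 against 2.36 ± 2.41), NUSAP1 (40.7 ± 44.2 against 5.18 ± 4), a spindle protein, and cdca8 (28.7 ± 27.9 against 2.85 ± 2.5) were higher as well. Of 41 S phase genes 3 were called higher (7.32%, near the 7.39% of all genes) and 0 lower (5.76% of all genes). The 3 were ORC5, of the origin recognition complex (110 ± 45.3 against 48.6 ± 10.5, edgeR adjusted p = 0.00263), dhfr, which supplies thymidylate synthesis (28.5 ± 13.5 against 11.6 ± 4.8), and CHAF1B, the partner of chaf1a (28.1 ± 8.72 against 7.96 ± 6.52). None of these 3 was called with scaling by library totals or without bihormonal replicates 4 and 5. At an unadjusted p under 0.05 edgeR gave 14 S phase genes higher and 0 lower, and DESeq2 called 4 higher and 0 lower. Among 22 G1 regulators cks2 was higher, and CCND2, CDK6 and mych, a Myc family gene (46 ± 31.3 against 137 ± 68.2), were lower. None of the 6 CDK inhibitors or the 17 centriole genes was called by edgeR or by DESeq2. At an unadjusted p under 0.05 edgeR gave 0 CDK inhibitors higher and 2 lower, and 2 centriole genes higher and 0 lower.

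The spread of these genes among bihormonal libraries was wide. The summed level of the 64 mitosis genes was 1721, 2215, 2048, 3653, 4722 and 3189 in bihormonal replicates 1 to 6, against 1507 to 1764 in GFPhigh cells, 1260 to 2061 in GFPlow cells and 1417 to 2098 in β-cells. That of the 54 S phase genes was 2101, 2164, 2211, 4103, 3493 and 3545, against 1626 to 1975 in GFPhigh cells, 2031 to 3226 in GFPlow cells and 1839 to 2309 in β-cells. Bihormonal replicates 4, 5 and 6 were the 3 highest of all 19 libraries in both sums, with GFPlow replicate 2 next to them for S phase. Bihormonal replicates 1 to 3, which form a set of their own, were near the ranges of the other groups. Without bihormonal replicate 5 the count of called cell cycle genes against β-cells was 13, and without replicates 4 and 5 together it was 8, with 3 higher and 5 lower. The insulin level moved in the same way, with a summed β-cell marker level of 464945 to 867019 in replicates 4 to 6 and of 197194 to 294441 in replicates 1 to 3. So did gcga, the glucagon gene of α-cells (19788 to 64986 against 4039 to 13259), the summed level of 12 acinar genes (403 to 1195 against 149 to 248) and ghrl (501 to 799.6 against 39.5 to 309). The red blood cell sum split as well, at 3.84 to 10.9 against 0. The remaining marker sums, those of endothelial cells and fibroblasts included, did not split in this way. Those of sst2 δ-cells (6975 to 39019 against 518 to 16501), duct cells (541 to 1504 against 297 to 852) and leukocytes (208 to 1273 against 225 to 430) overlapped. The sum for sst1.1 δ-cells tended the other way, at 2635 to 3433 against 3120 to 4968. The part of any of these cell types in the cell cycle levels was not tested.

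**Figure D5:**
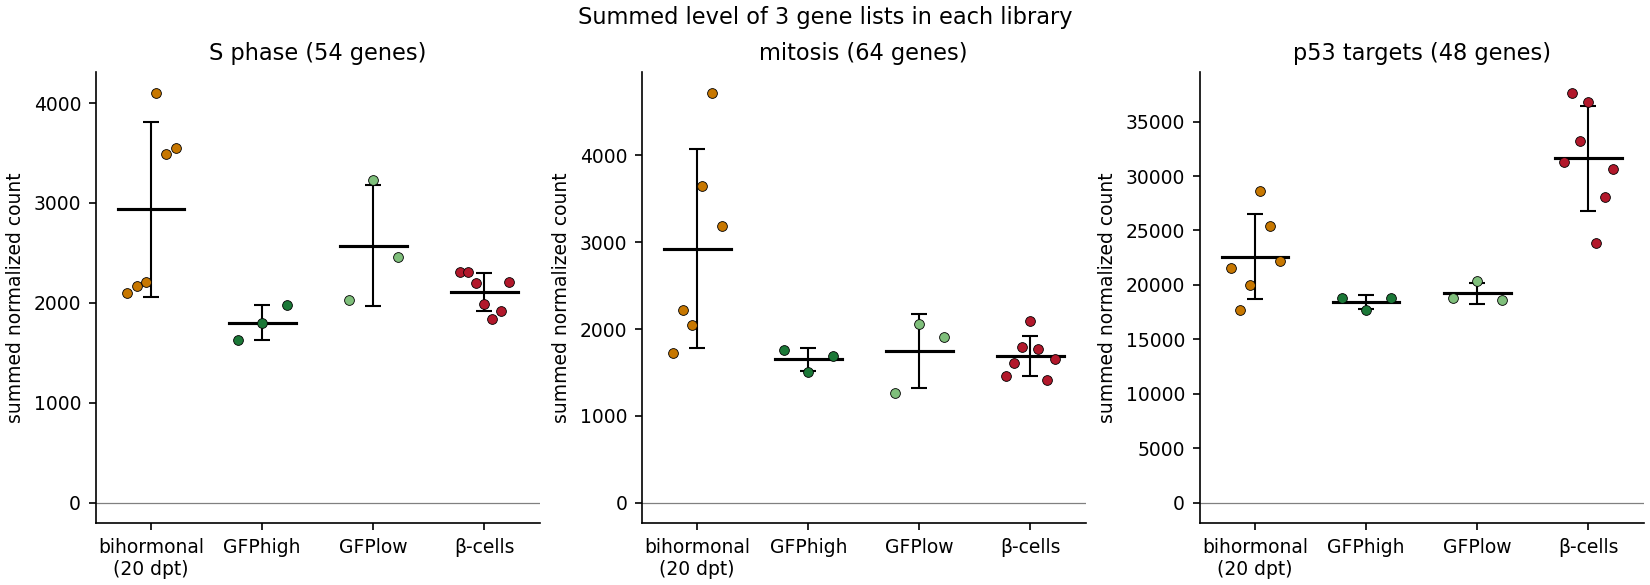
Summed normalized counts of the S phase, mitosis and p53 target lists in each library (points), with group mean (bar) and SD (whiskers). Bihormonal replicates 4 to 6 lie between 3189 and 4722 for mitosis genes, above the other 16 libraries, and β-cells range from 23889 to 37648 for p53 targets, overlapping bihormonal cells at 17734 to 28632. The p53 target sum rests largely on single genes, with means of 31642 in β-cells and 22600 in bihormonal cells. Of these, BTG2 alone gave 15064 and 5432, and CCNG1 gave 6250 and 8287.

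GFPhigh against GFPlow cells, the comparison of the strongly and the weakly fluorescent δ-cells of unablated fish, gave 3 cell cycle genes called higher and 7 lower of 121, beside 7.86% of all genes called higher and 7.83% lower (1155 and 1150 of 14693). Scaling by library totals gave 2 higher and 21 lower, beside 499 and 2596 over all genes. CDKN2C (2.02 ± 3.49 in GFPhigh against 51.4 ± 11.4 in GFPlow cells, log2 fold change -4.64, SE 0.96, edgeR adjusted p = 0.00153) and chaf1a (18.5 ± 5.96 against 99.8 ± 43.3, edgeR adjusted p = 0.00176) fell, as did CKS1B, GMNN, an inhibitor of replication licensing, and CEP85. Of the mitosis genes ccnb3 and WEE1, a kinase that holds back CDK1, fell, whereas kif20ba (387 ± 86.4 against 48.9 ± 23.8, log2 fold change 3, SE 0.43, edgeR adjusted p = 5.06e-05) and CCNA1 rose. CEP120, which builds centrioles, rose, at 98.7 ± 53.9 against 28.8 ± 7.99 (edgeR adjusted p = 0.0172). With the library set blocked, chaf1a and kif20ba were still called and the other 8 of these were not. That fit reaches this pair of groups only by way of β-cells, since no set holds both. The count of 10 was 4 without GFPhigh replicate 2, 5 without GFPlow replicate 2, and 16 without GFPhigh replicate 1 or 3.

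The p53 pathway was followed through 58 tested genes besides mdm2 and rps27l, 14 of them p53 and its regulators and 44 p53 targets. In bihormonal against GFPhigh cells 5 of the 58 rose and 0 fell, beside 1.42% of all genes called higher and 1.34% called lower. CCNG1, a p53-induced cyclin, had 8287 ± 1618 against 2833 ± 416 (log2 fold change 1.55, SE 0.3, edgeR adjusted p = 0.0167), without overlap. The other targets were sesn2, a stress-induced regulator of growth signalling (394 ± 171 against 125 ± 60.5), BAX, which opens mitochondria in apoptosis (144 ± 29.6 against 53.7 ± 39.8), and one GADD45A row (ENSDARG00000043581), a growth arrest gene (998 ± 142 against 467 ± 96.1). RPL5, a ribosomal protein that can bind MDM2, had 2416 ± 948 against 1145 ± 220 (log2 fold change 1.08, SE 0.3, edgeR adjusted p = 0.0489).

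These calls depended on single libraries too. Their count was 0 without GFPhigh replicate 2, 1 without bihormonal replicate 4, bihormonal replicate 5, GFPlow replicate 1 or GFPlow replicate 3, 2 without GFPhigh replicate 1, GFPlow replicate 2, β-cell replicate 2 or β-cell replicate 3, 3 without β-cell replicate 4 or 6, and 8 without GFPhigh replicate 3. At an unadjusted p under 0.05 edgeR gave 17 of 58 higher and 6 lower, and DESeq2 called 9 higher and 0 lower. The median log2 fold change of the 44 targets was 0.41, and 0.31 with a gene at 0 in all GFPhigh libraries set to its floor. The cell cycle inhibitor cdkn1a, the best known p53 target, had 51.7 ± 15.5 in bihormonal against 11.4 ± 3.52 in GFPhigh cells and was not called (log2 fold change 2.16, SE 0.76, edgeR adjusted p = 0.0821).

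Against β-cells 3 of 44 p53 targets were called higher in bihormonal cells and 4 lower (6.82% and 9.09%, near the 7.39% and 5.76% of all genes), and none of the 14 regulators was called by edgeR or by DESeq2 (edgeR at an unadjusted p under 0.05: 3 higher, 1 lower). SESN1, a relative of sesn2, had 130.2 ± 69.9 in bihormonal cells against 826 ± 425 in β-cells (log2 fold change -2.65, SE 0.33, edgeR adjusted p = 3.14e-06), and BTG2, an antiproliferative gene, 5432 ± 2106 against 15064 ± 3050 (-1.47, SE 0.22, edgeR adjusted p = 3.19e-05). In the other direction, sesn2 had 394 ± 171 against 100.6 ± 35.6 (log2 fold change 1.97, SE 0.3, edgeR adjusted p = 5.04e-05), and the second row of GADD45A (ENSDARG00000104571, 229 ± 63.4 against 95.1 ± 60.7) was higher. CCNG1 had 6250 ± 2394 in β-cells and was not called (edgeR adjusted p = 0.23). With scaling by library totals 2 p53 genes were higher and 13 lower, beside 707 and 2896 over all genes.

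In GFPhigh against GFPlow cells 3 p53 targets rose and 13 of 44 fell, beside 7.86% of all genes called higher and 7.83% called lower, with a median log2 fold change of -0.77, while none of the 14 regulators was called by edgeR (4 higher and 1 lower at an unadjusted p under 0.05) and 1 was called higher by DESeq2. APAF1, which assembles the apoptosome (122 ± 7.61 in GFPhigh against 386 ± 60.5 in GFPlow cells, edgeR adjusted p = 0.000161), SESN1 (160.1 ± 29.8 against 942 ± 52.7, edgeR adjusted p = 0.000511), BAX (53.7 ± 39.8 against 215 ± 71.5) and RPRM, a G2 arrest gene (4.21 ± 7.29 against 544 ± 40.9), were among those that fell. CASP9 (74.2 ± 39 against 210 ± 50.9, edgeR adjusted p = 0.00879) fell too. One PLK3 row, given above, and a GADD45A row (ENSDARG00000043581, 467 ± 96.1 against 213 ± 35.7) rose, as did ZMAT3 (29.8 ± 14.2 against 6.47 ± 4.82). The median was -0.56 with a gene at 0 in a group set to its floor. The count of 16 called targets was 9 without GFPhigh replicate 1, GFPhigh replicate 2, GFPlow replicate 1 or GFPlow replicate 2, and scaling by library totals gave 0 higher and 22 lower, beside 499 and 2596 over all genes. With the library set blocked, a fit that reaches this pair only by way of β-cells, APAF1, SESN1 and RPRM were still called. BAX, PLK3, GADD45A and ZMAT3 were not called in it. GFPlow cells also differed from GFPhigh cells by their sst2 level and by ghrl, the ghrelin gene, whose median was 43557 in GFPlow and 402 in GFPhigh cells. Medians of gcga (20382 against 2864), the duct cell sum (5026 against 696) and the acinar sum (2797 against 208) were higher too. Among the duct genes ANXA4 was higher (4648 against 45.3) and krt18a.1 lower (369 against 652). The acinar sum of GFPlow replicate 3 (321) lay within the GFPhigh range. The part of these cell types in the p53 list and in the ccnd1 level was not tested.

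The genes whose levels followed each of the 4 most closely over the 19 libraries were read from Pearson's r of log2(normalized count + 1) with the 14692 other genes tested, as a description over libraries that share groups and composition. For ccnd1 they were CACNA1E, a calcium channel subunit (r = 0.891), CDKN2C (0.887) and si:dkey-262k9.2 (0.874). CDKN2C had 25.4, 2.02, 51.4 and 14.1 normalized counts on average in bihormonal, GFPhigh, GFPlow and β-cells, so it was also lowest in GFPhigh cells. For plk4 they were PGM3, an enzyme of amino sugar synthesis (0.932), ENSDARG00000100739 (0.921) and MFGE8, a secreted glycoprotein gene (0.914), and PGM3 averaged 3140 in bihormonal, 1884 in GFPhigh, 335.2 in GFPlow and 340.5 in β-cells. For mdm2 the closest gene was cdkn1a (0.843), followed by ENSDARG00000090401 (0.825) and rps27l (0.811). For rps27l they were mat2al (0.928), ENSDARG00000090401 (0.915) and bmb (0.896). ENSDARG00000090401, close to both p53 targets, averaged 94 in bihormonal, 12.3 in GFPhigh, 0.73 in GFPlow and 69.4 in β-cells.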

How the data were processed

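SMART-Seq2 RNA-seq was done on 19 libraries of FACS-sorted islet cells. Per the labels and the study's methods, the authors mapped reads to GRCz11 by STAR and tallied them over Ensembl genes by featureCounts. What they deposited is raw counts, in a table for each library. Tool versions are not given in the sources used here. Gene names came from a table that gives human symbols in capitals to many zebrafish genes, and 29178 of 31901 IDs had a symbol.

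Counts were scaled by TMM and fitted with edgeR 4.0.16 (R 4.3.3, glmQLFit and glmQLFTest, 1 mean per group) over all 19 libraries, which pools the spread of the 4 groups. The test covered the 14693 genes whose normalized count averaged 10 or more, and the common dispersion was 0.139. A gene was called at a Benjamini-Hochberg adjusted p under 0.05 and a fold above 2. Standard errors were derived from the F statistic. The steps were tested on simulated counts. Total counts per library set the precision of low values, such as ccnd1 in GFPhigh cells.

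The 4 genes and all gene lists were chosen with earlier results of these data known. Named genes are the 4, their paralogs, PCNA and CCNG1, up to 6 called genes with the smallest p per list and comparison, and the 3 most alike genes per member. Not every gene under the rule is reported here, and which are was chosen after their values were seen, as was cdkn1a in the comparison with GFPhigh cells. GADD45A in bihormonal cells against β-cells lies outside the 6 smallest p of its list. So do GADD45A and ZMAT3 in GFPhigh against GFPlow cells. Alternatives were DESeq2 1.42.0, its size factors, library totals alone, other filters, fits restricted to the pair compared, a block for replicate number or for library set, a fold above 2 tested inside the model, and each library left out in turn. Coordinates and sequences are not given, since no genome of the build was used here.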

Additional observations from a re-analysis of the deposited data

Results flagged for a closer look

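The plk4 level of β-cell replicate 1 stood apart from its group, at 16.9 normalized counts (15 reads) with the next of the 7 libraries at 5.32. Of 14 sets of libraries examined in this way, over 7 genes in bihormonal cells and β-cells, this was the 1 that passed Dixon's 95% limit, and chance passes it in about 1 of 20 groups. The value lies below all bihormonal and GFPhigh libraries. Without this library the log2 fold change of plk4 between bihormonal cells and β-cells was 5.2, against 4.74 with it.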

How the results depend on the processing

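The log2 fold changes of the 4 genes in the 3 comparisons moved by less than 1 SD of their libraries in all fits that left out a single library. Leaving out 1 library can hardly move a group mean that far, so this bound says little. In bihormonal against GFPhigh cells plk4 went from 0.77 to 0.09, and ccnd1 from 4.62 to 5.67. In GFPhigh against GFPlow cells mdm2 went from 0.2 to -0.14. Over all 6 pairs, 24 of 215 values moved by at least 1 SD under the other settings. The called list genes named in the text kept the direction of their call under every alternative that gave a value. This statement does not cover TP53I11, TP53INP1 and CASP9, and uncalled genes were not followed in this way. Counts of calls in bihormonal against GFPhigh cells were the least stable. In the order all genes, cell cycle list and p53 list, these were 405, 10 and 5 there, 1933, 21 and 7 in bihormonal cells against β-cells, and 2305, 10 and 16 in GFPhigh against GFPlow cells.

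For bihormonal against GFPhigh cells they were 1153, 33 and 9 with DESeq2, 50, 0 and 1 with library totals, 31, 0 and 1 with only the groups compared, 41, 4 and 1 with the library set blocked, 16, 0 and 0 with the fold tested inside the model, and 42, 0 and 1 without bihormonal replicates 4 and 5, a choice made after seeing the data. The cell cycle count was 16 with filterByExpr, and the p53 count was 3 with no filter. For bihormonal cells against β-cells they were 1014, 8 and 3 with the fold tested inside the model. Library totals gave 3603 genes and 15 p53 genes, and the cell cycle count was 36 with filterByExpr, 33 with no filter, 34 with only the groups compared and 8 without bihormonal replicates 4 and 5. For GFPhigh against GFPlow cells they were 819, 3 and 5 with the library set blocked, and 1119, 3 and 4 with the fold tested inside the model, the cell cycle count was 16 with DESeq2 and 23 with library totals, and the p53 count was 10 with only the groups compared.

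Leaving out single libraries gave 13 to 920 genes, 0 to 21 cell cycle genes and 0 to 8 p53 genes for bihormonal against GFPhigh cells, 13 to 24 cell cycle genes for bihormonal cells against β-cells, and 4 to 16 cell cycle and 9 to 19 p53 genes for GFPhigh against GFPlow cells. The 13 were without GFPhigh replicate 2 and the 920 without GFPhigh replicate 3. The all-gene count was also 68 and 58 without bihormonal replicates 4 and 5, 185, 188 and 187 without GFPlow replicates 1, 2 and 3, 238, 251 and 194 without β-cell replicates 2, 3 and 4, and 882 and 659 without bihormonal replicates 2 and 6.

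With library totals the log2 fold change of rps27l was 1.87 in bihormonal against GFPhigh cells, 0.13 in bihormonal cells against β-cells and 0.27 in GFPhigh against GFPlow cells, and that of mdm2 was -0.20 in bihormonal cells against β-cells and -0.39 in GFPhigh against GFPlow cells. That scaling moved the median of all genes by -0.24, -0.64 and -0.55 in the 3 comparisons. With library sets blocked, plk4 had -0.51 and rps27l 1.81 in bihormonal against GFPhigh cells, and mdm2 0.92 and rps27l 1.87 in GFPhigh against GFPlow cells. In bihormonal against GFPlow cells the log2 fold change of ccnd1 turned from -0.59 to 0.45 in that fit. Bihormonal replicates 1 to 3 and GFPlow replicate 1 are alone in their sets and do not enter these differences. GFPlow cells share a set only with β-cells, so their blocked differences from GFPhigh and bihormonal cells run only through β-cells. Without bihormonal replicates 4 and 5 plk4 had -0.59 against GFPhigh cells and 3.4 against β-cells. The causes of these shifts were not tested.

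The replicate numbers gave no sign of pairing the samples, which these means cannot exclude. Libraries with the same number had a mean correlation of deviations of -0.03 over 21 pairs, against 0.01 over 108 pairs with other numbers. Libraries of the same set had a mean correlation of 0.103 over 15 pairs, against -0.01 over 114 pairs from other sets. With the replicate number as a block, 3 genes, 0 cell cycle and 0 p53 genes were called in bihormonal against GFPhigh cells and 10 cell cycle genes in bihormonal cells against β-cells, and rps27l had 2.41 against GFPhigh cells. Low counts limit ccnd1 in GFPhigh cells (0 to 14 reads) and plk4 in β-cells (3 to 15 reads).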
